A study of Mus musculus with 24 samples.

Results

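The hemoglobin genes of the mouse hypothalamus were taken as every gene whose symbol starts with *Hba-* or *Hbb-*, together with *Alas2*. The rule found 3 of the 13998 genes in the deposited table, namely *Hba-a1* and *Hba-a2*, which encode the alpha chain of adult hemoglobin, and *Alas2*, which encodes the erythroid form of 5-aminolevulinate synthase, the enzyme that starts heme synthesis. No gene of the table has a symbol starting with *Hbb-*, so the beta chain was not analysed here.

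Hypothalamus RNA of 24 male F2 mice was profiled by SAGE-Seq, which reads 1 tag of 27 bases near the 3′ end of each transcript, so levels do not scale with transcript length. The 12 cast/cast mice carried CAST/EiJ alleles and the 12 b6/b6 mice C57BL/6J alleles on both copies of a Chr 17 segment, and all 24 were b6/b6 elsewhere. The cast/cast mice were those that had eaten the most carbohydrate and the b6/b6 mice those that had eaten the least, and all had been put back on the choice of carbohydrate/protein and fat/protein diets for about 48 h, after a period on chow, when the tissue was taken. The labels give each mouse a study number and a colony number, and 1 library was made per mouse. Food was withheld for 4 h before collection. Death was by isoflurane overdose and decapitation, the hypothalamus was dissected out under visual guidance, and no perfusion is described. Mice are named below by their study number.

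Hemoglobin carries oxygen in red blood cells and is built from alpha and beta chains, each holding a heme group. Young red cells, the reticulocytes, still contain globin mRNA and *Alas2* mRNA, and blood left in the vessels of a tissue brings this RNA into a tissue sample. Alpha-globin transcripts have also been described at low level in neurons and glia, so a bulk sample does not by itself tell the source of a tag.

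Library totals ran from 7754202 to 13082873 tag hits, with a median of 10383038 for the cast/cast and 10032338.5 for the b6/b6 genotype. Levels are given as normalized tag counts, the tag hits of a gene divided by the size factor of the library. The median correlation with the other libraries was lowest for b6/b6 mouse 27 (replicate 12) at 0.862, followed by cast/cast mouse 72 (replicate 6) at 0.884, b6/b6 mouse 42 (replicate 6) at 0.893 and cast/cast mouse 15 (replicate 4) at 0.912, and the other 20 libraries lay between 0.924 and 0.956. All 4 have study numbers of at most 72, but so do b6/b6 mice 41 and 70, whose libraries lay within that range. Test results are given with all mice and without mice 27 and 42, a choice made after seeing the data. Mice 27 and 42 are early b6/b6 mice and also had the highest alpha-globin sums, so leaving them out by itself lowers the b6/b6 mean and raises the b6/b6 slope with study number.

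The labelled tissue was checked against 22 hypothalamus genes, of which 19 were in the table. *Pmch*, the melanin-concentrating hormone precursor, was the most abundant at a mean of 8130 normalized tag counts, followed by *Pomc* at 2401, *Gal* at 1547 and *Hdc* at 1473. *Sst*, *Otp* and *Rax* were not in the table and were not analysed here. The summed level of the list ran from 7745 in mouse 72 to 39333 in mouse 255, so hypothalamus markers were present in every library.

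*Hba-a1* ranked 4725th of 13998 genes by mean level, at 332.8 normalized tag counts, *Hba-a2* 5217th at 278.8 and *Alas2* 11679th at 23.3. The levels differed widely between mice, with 44.2-fold between the highest and the lowest mouse for *Hba-a1*, 69.7-fold for *Hba-a2* and 25.0-fold for *Alas2*. The coefficient of variation over the 24 mice was 156% for *Hba-a1*, 168% for *Hba-a2* and 77.9% for *Alas2*, against a median of 39.4% over all genes. Among all genes, 98.9% varied less than *Hba-a1*, 99.1% less than *Hba-a2* and 91.4% less than *Alas2*. The alpha-globin values rested largely on mouse 42, without which the folds were 13.0 for *Hba-a1*, 26.7 for *Hba-a2* and 19.8 for *Alas2* and the coefficients of variation 79.3%, 93.6% and 72.9%. Without mouse 27 as well, the coefficients were 70.2%, 60.3% and 73.7%, above those of 94.9%, 89.7% and 96.0% of genes. The alpha-globin genes were thus of middling and *Alas2* of low abundance, and all 3 varied more between mice than most genes.

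The summed alpha-globin level of *Hba-a1* and *Hba-a2* was highest in b6/b6 mouse 42, at 4929 normalized tag counts, and second in b6/b6 mouse 27, at 1657. Next in order were b6/b6 mouse 331 at 1008 and cast/cast mouse 72 at 742. The lowest were cast/cast mouse 245 at 92.4 and b6/b6 mouse 70 at 116. Both genotypes were therefore found near both ends of the order. The lowest sum rested on 89 tag hits and the highest on 5275.

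In order of study number, the alpha-globin sums of cast/cast mice 15, 72 and 93 were 323, 742 and 568 normalized tag counts. Mice 97, 112 and 120 followed at 174, 197 and 228, and mouse 121 at 491. The later cast/cast mice 197, 245, 255, 258 and 270 had 188, 92.4, 186, 250.3 and 277. The 4 cast/cast mice with the highest sums thus all had study numbers of at most 121, but low values occurred among the early cast/cast mice as well.

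Among b6/b6 mice the early study numbers held the extremes, with sums of 1657 in mouse 27, 169 in mouse 41, 4929 in mouse 42, 116 in mouse 70 and 203 in mouse 109. Mouse 251 had 167. The late mice 288, 331, 332, 337, 342 and 364 had 653, 1008, 635, 449, 467 and 509. All 6 b6/b6 mice from study number 288 on thus lay above the 4 low b6/b6 mice (41, 70, 109 and 251) and below mice 27 and 42. No b6/b6 mouse had a study number between 109 and 251.

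*Alas2* showed a similar order. Its highest values were 70.1 normalized tag counts in mouse 42, 55.5 in mouse 332, 46.8 in mouse 27, 41.7 in mouse 364 and 40.4 in cast/cast mouse 72. Its lowest were 2.81 in cast/cast mouse 255, 3.66 in cast/cast mouse 112 and 5.19 in b6/b6 mouse 70. Mice high in alpha-globin were mostly high in *Alas2*, but the alpha-globin tags per *Alas2* tag ran from 7.42 in mouse 245 to 66.3 in mouse 255 and 70.3 in mouse 42. *Alas2* rested on 3 to 75 tag hits per mouse, so its single values carry a wide counting error.

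**Figure D1:**
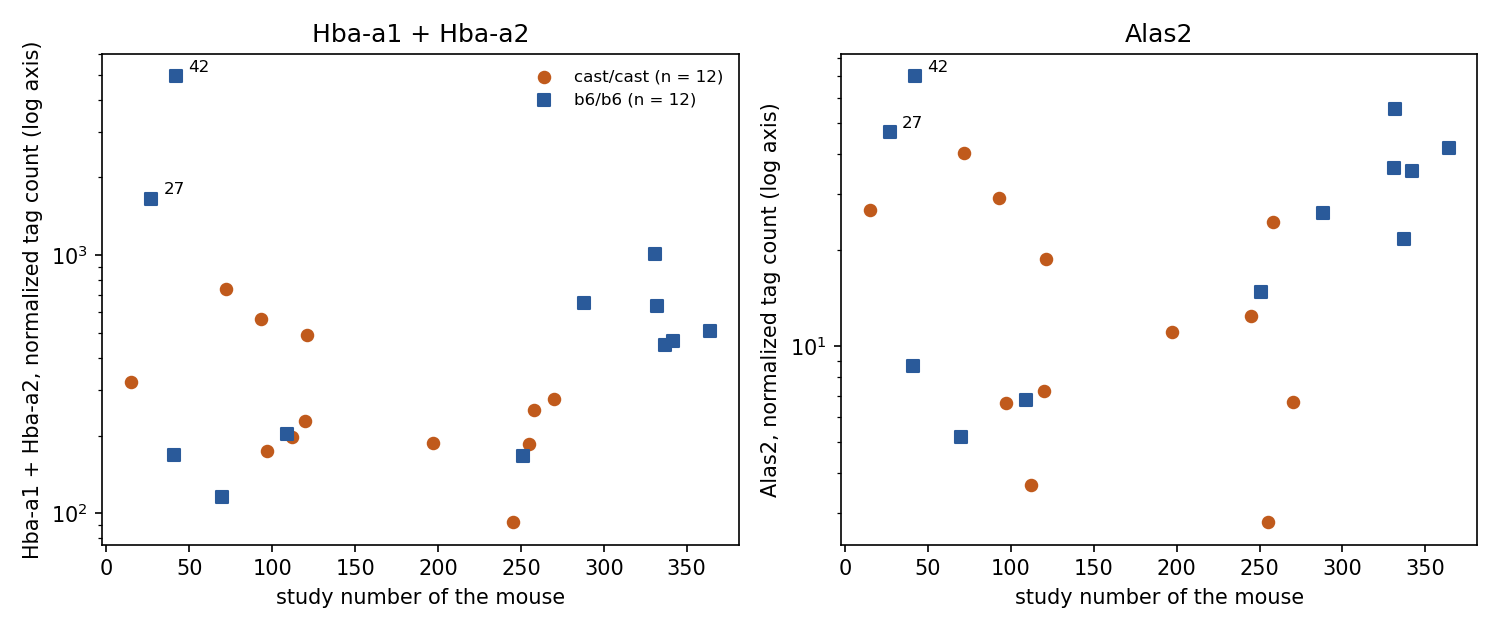
Normalized tag counts (log axes) of the *Hba-a1* and *Hba-a2* sum and of *Alas2* against the study number of each of the 24 mice, 12 cast/cast and 12 b6/b6, 1 point per mouse. Mouse 42 had the highest value in both, at 4929 for the sum and 70.1 for *Alas2*, and the 6 b6/b6 mice from study number 288 on had sums from 449 to 1008.

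The levels of *Alas2* and the alpha-globin genes went together from mouse to mouse. *Alas2* had a Pearson's r of log2 levels with *Hba-a1* of 0.68 in the 12 cast/cast mice (permutation p = 0.0161; Spearman's rho 0.71, p = 0.0126) and of 0.87 in the 12 b6/b6 mice (p = 0.00024; rho 0.87, p = 0.00045). With *Hba-a2* its r was 0.57 in cast/cast mice (permutation p = 0.0506; rho 0.71, p = 0.0128) and 0.85 in b6/b6 mice (p = 0.0002; rho 0.88, p = 0.00033). Whether these r values differ between the genotypes was not tested. Leaving out the mice farthest from the median of the first gene, r between *Hba-a1* and *Alas2* was 0.42 in cast/cast mice (without 72 and 93) and 0.83 in b6/b6 mice (without 42 and 70), so the cast/cast value rests in good part on mice 72 and 93. Between *Hba-a2* and *Alas2*, r without the farthest 2 was 0.70 and 0.90. Between *Hba-a1* and *Hba-a2*, r was 0.90 and 0.98, which is a description only because the alpha-globin genes share their tag (below). All p-values of correlations are two-sided, and 39 correlations were computed, 12 of them with study number.

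*Hba-a1* and *Hba-a2* can hardly be told apart by their tags. Both genes lie on chromosome 11, at 32283672 to 32284486 and 32296492 to 32297310 in RefSeq (GRCm38), and the deposited table lists each of the pair at both places. The tag nearest the 3′ end of the main transcript, from the last CATG onward, was read from the GENCODE vM21 transcripts (GRCm38) and is shown because it is what the assay counts, with the CATG in capitals. It lies on the + strand in exon 3 of 3, in the 3′ UTR, at chr11:32284421-32284447 for *Hba-a1* and chr11:32297238-32297264 for *Hba-a2*, while the *Alas2* tag lies in coding sequence of exon 11 of 11 at chrX:150570458-150570484 on the + strand.
Hba-a1: CATGcccttcttctctcccttgcacct
Hba-a2: CATGcccttcttctctcccttgcacct
Alas2: CATGggaccccaatatgttaccaccta
The alpha-globin tags differ at 0 of 27 bases, and of the 5 CATG sites in each transcript 4 give a shared tag. How the counting divided a shared tag between the genes is not given, and the share counted as *Hba-a1* ran from 40.9% in mouse 251 (95% Wilson interval 34.0 to 48.2) to 64.0% in mouse 245 (53.7 to 73.2). The division between the alpha-globin genes is therefore uncertain, and their values are not independent measurements. These intervals cover counting error only. The *Alas2* tag was the last tag of no other gene.

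The promoters are shown because *Alas2* and alpha-globin went together from mouse to mouse. The RefSeq promoter table (GRCm38) holds all 3 genes, and the last 120 bases before the start are printed for *Hba-a1* (chr11:32283552-32283671, + strand) and *Alas2* (chrX:150547297-150547416, + strand), with motif matches in capitals.
Hba-a1: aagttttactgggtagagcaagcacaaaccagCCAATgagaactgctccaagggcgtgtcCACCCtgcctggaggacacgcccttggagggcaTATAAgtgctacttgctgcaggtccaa
Alas2: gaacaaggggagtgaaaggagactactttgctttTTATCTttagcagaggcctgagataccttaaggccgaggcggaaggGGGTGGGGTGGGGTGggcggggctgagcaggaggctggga
CCAAT (the CAAT box), AGATAA (bound by GATA factors), CACCC (the CACCC box) and TATAA (the TATA box) were searched on both strands in the 250 bases before the start, and no match of one motif overlapped a match of another in the printed stretch. In the *Hba-a1* stretch CCAAT began at -88, CACCC at -60 and TATAA at -27 from the start. The *Alas2* stretch held AGATAA as its reverse complement TTATCT at -86 and CACCC as GGGTG at -40, -35 and -30. Of 32851 promoters of this length, 33.8% held CCAAT, 9.99% AGATAA, 52.0% CACCC and 22.8% TATAA, and a match is a description only. The promoter window of *Hba-a2* was identical to that of *Hba-a1* at 247 of 247 aligned positions, shifted by 3 bases.

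The genotype comparison asked whether hemoglobin transcripts differed between cast/cast and b6/b6 mice. *Hba-a1* ran from 59.2 to 462.9 normalized tag counts in cast/cast mice, with a median of 125.7, and from 66.4 to 2615 in b6/b6 mice, with a median of 284.3. *Hba-a2* ran from 33.2 to 278.9 (median 100.9) and from 49.8 to 2314 (median 204.4). *Alas2* ran from 2.81 to 40.4 (median 11.8) and from 5.19 to 70.1 (median 30.8). For each gene the b6/b6 median was above the cast/cast median, and the ranges overlapped. In bulk tissue, fewer cells of a type and less RNA per cell cannot be told apart.

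In the cast/cast group *Hba-a1* averaged 172.7 ± 118 (SD, n = 12) and in the b6/b6 group 492.8 ± 702 (n = 12), a cast/cast over b6/b6 ratio of 0.351. The log2 difference was -0.91 (SE 0.47, limma, P = 0.0616, adjusted P = 0.614). For *Hba-a2* the means were 137.0 ± 77.7 and 420.7 ± 638 and the log2 difference -0.92 (SE 0.47, P = 0.0602, adjusted P = 0.612). For *Alas2* they were 15.8 ± 12.0 and 30.7 ± 20.6, with a log2 difference of -0.92 (SE 0.44, P = 0.0456, adjusted P = 0.608). None of the 3 genes met the genotype threshold (unadjusted P up to 0.01, means differing by at least 1.5 times), against 1.49% of all genes (208 of 13998, 66 higher and 142 lower in cast/cast), and *Alas2* alone was under 0.05 unadjusted. Thus the b6/b6 values were higher on average in all 3 genes, but not beyond the spread between mice in this test.

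The size of the genotype difference rested on few mice. Without mice 27 and 42 the b6/b6 means were 252.7 ± 171 for *Hba-a1*, 184.8 ± 112 for *Hba-a2* and 25.2 ± 16.8 for *Alas2* (SD, n = 10), and the ratios rose to 0.684, 0.742 and 0.628. The log2 differences were then -0.44 (P = 0.270), -0.38 (P = 0.295) and -0.67 (P = 0.146), with 137 of 13948 genes called. Without mouse 42 alone the ratios were 0.576 for *Hba-a1* and 0.551 for *Hba-a2*, so this mouse by itself moved both by more than 1.5 times.

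Count models gave other calls for the alpha-globin genes. With edgeR, *Hba-a1* had a log2 difference of -1.52 (P = 0.00496, adjusted P = 0.245) and *Hba-a2* of -1.62 (P = 0.00347, adjusted P = 0.221), and both met the threshold, as did 2.79% of all genes. With DESeq2 the differences were -1.51 (P = 0.0012, adjusted P = 0.0981) and -1.62 (P = 0.000645, adjusted P = 0.0649), and again both met it, as did 2.82% of all genes. When mice 27 and 42 were left out, edgeR gave -0.56 (P = 0.149) and -0.44 (P = 0.204), and neither gene met it. Over all alternatives the adjusted P ran from 0.0981 to 0.9995 for *Hba-a1* and from 0.0649 to 0.9995 for *Hba-a2*. *Alas2* met the threshold with no tool, with P = 0.0300 in edgeR and 0.0231 in DESeq2. Rescaling the libraries to equal totals kept the 3 differences negative and moved the median log2 difference of all genes from -0.02 to -0.11.

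Study number differed between the genotypes, with a median of 120.5 in cast/cast mice (15 to 270) and 269.5 in b6/b6 mice (27 to 364), so genotype and study number are partly confounded. With study number as a covariate, the genotype log2 difference was -0.99 for *Hba-a1* (P = 0.0514), -1.03 for *Hba-a2* (P = 0.0420) and -0.88 for *Alas2* (P = 0.0660) in all mice, and -0.20 (P = 0.635), -0.16 (P = 0.678) and -0.37 (P = 0.450) without mice 27 and 42. Study number and colony number went together (r = 0.985, rho = 0.963, 24 mice). What a study number stands for, such as a date of test or of tissue collection, is not given in the labels. The paper describes separate test cohorts and a fat diet whose shortening source varied with availability. Whether study number follows either was not tested.

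Over all 24 mice, with genotype in the model, the hemoglobin genes did not pass with study number in limma. The slope of log2 level per 100 study numbers was -0.14 (SE 0.21, P = 0.510, adjusted P = 0.709) for *Hba-a1*, -0.20 (SE 0.21, P = 0.350, adjusted P = 0.575) for *Hba-a2* and 0.07 (SE 0.20, P = 0.728, adjusted P = 0.856) for *Alas2*. None of the 3 genes passed an adjusted P of 0.05, and limma called 0 of 13998 genes (0%), with 2968 under an unadjusted P of 0.05. At an unadjusted P of at most 0.01, 6.27% of genes passed (878) and none of the 3. By adjusted P, edgeR called 385 genes and DESeq2 959, without any of the 3. The alpha-globin slopes were steeper in these tools, at -0.47 for *Hba-a1* in both (P = 0.0213 with edgeR and 0.0154 with DESeq2) and -0.53 for *Hba-a2* (P = 0.00802 and 0.00516). *Hba-a2* was thus among the genes at an unadjusted P up to 0.01 in both, 1219 of 13998 with edgeR and 1607 with DESeq2.

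The sign of the alpha-globin slopes depended on mice 27 and 42. Without both, the slopes were 0.26 for *Hba-a1* (P = 0.186), 0.24 for *Hba-a2* (P = 0.181) and 0.33 for *Alas2* (P = 0.140), with 0.387% of genes at an unadjusted P up to 0.01 and 0 by adjusted P in both limma and edgeR (539 and 553 under 0.05). Without mouse 42 alone they were 0.07 for *Hba-a1* and 0.01 for *Hba-a2*, and *Alas2* turned to -0.04 without mouse 70 and -0.02 without mouse 41. Without the 4 mice with the lowest library correlations (15, 27, 42 and 72), the *Alas2* slope was 0.57 (P = 0.00764, adjusted P = 0.0499) and passed, as did 15.3% of all genes (2135). Over all alternatives the adjusted P of the *Alas2* slope ran from 0.0499 to 0.987. *Hba-a1* then had 0.41 (adjusted P = 0.112) and *Hba-a2* 0.38 (adjusted P = 0.122). Leaving out cast/cast mouse 15 alone raised the count of called genes from 0 to 1174, and cast/cast mouse 112 alone to 1.

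In cast/cast mice the hemoglobin genes tended to lower levels at higher study numbers, without passing the test. The slopes were -0.52 for *Hba-a1* (P = 0.205), -0.49 for *Hba-a2* (P = 0.238) and -0.51 for *Alas2* (P = 0.169), and limma called 0 of 13998 genes by adjusted P, with 270 under an unadjusted P of 0.05. Pearson's r with study number over the 12 cast/cast mice was -0.53 for *Hba-a1* (permutation p = 0.0798; rho -0.47, p = 0.129), -0.49 for *Hba-a2* (p = 0.106; rho -0.33, p = 0.296) and -0.40 for *Alas2* (p = 0.199; rho -0.45, p = 0.146). Without mice 258 and 270, the farthest from the median, r was -0.61, -0.66 and -0.54. Without mice 15, 27, 42 and 72 the slopes were -0.43 (P = 0.153), -0.41 (P = 0.149) and -0.14 (P = 0.694), so that of *Alas2* rested largely on mice 15 and 72. The sign was negative for all 3 genes in each of these sets, and no permutation p over the 12 mice was under 0.05.

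In b6/b6 mice the alpha-globin genes had slopes near 0 with all 12 mice, at 0.003 for *Hba-a1* (P = 0.990) and -0.09 for *Hba-a2* (P = 0.715), and *Alas2* had 0.29 (P = 0.203). None of the 3 was among the 1972 genes called by adjusted P (14.1%), and this count was 0 without mouse 27 alone, without mouse 42 alone and without both, where 1956 genes were under an unadjusted P of 0.05. It was 791 without mouse 331, 1289 without mouse 342 and 1279 without mouse 288. The *Hba-a2* slope turned to 0.11 without mouse 27 and 0.23 without mouse 42, and the *Hba-a1* slope turned negative without mouse 41, 70, 109, 288, 331, 332 or 364, down to -0.16 without mouse 70. Pearson's r over the 12 mice was 0.003 for *Hba-a1* (permutation p = 0.993; rho -0.02, p = 0.956), -0.08 for *Hba-a2* (p = 0.802; rho 0.01, p = 0.991) and 0.35 for *Alas2* (p = 0.260; rho 0.16, p = 0.621). Without mice 27 and 41, the farthest from the median, r was 0.01, -0.06 and 0.43.

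Without mice 27 and 42 the b6/b6 slopes were 0.71 for *Hba-a1* (P = 0.000831), 0.66 for *Hba-a2* (P = 0.000684) and 0.82 for *Alas2* (P = 0.00104), each with an adjusted P of 0.339. Without mice 15 and 72 as well, the adjusted P of each was 0.0834. All 3 were among the 2.71% of genes (378 of 13948) at an unadjusted P of at most 0.01. Over these 10 mice r was 0.79 for *Hba-a1* (permutation p = 0.00969; rho 0.58, p = 0.0888), 0.86 for *Hba-a2* (p = 0.00125; rho 0.61, p = 0.0664) and 0.92 for *Alas2* (p = 0.00058; rho 0.79, p = 0.00876). Without mice 41 and 70 as well, r was 0.66, 0.71 and 0.90. This relation set 3 early mice, all low, against 7 late ones. Mice 27 and 42 were early b6/b6 mice with the highest alpha-globin sums. Leaving them out by itself raises these slopes, so the values are a description only.

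Within the 7 late b6/b6 mice alone (study numbers 251 to 364), a split made after seeing the data, r was 0.64 for *Hba-a1* (exact permutation p = 0.149; rho -0.07, p = 0.906), 0.52 for *Hba-a2* (exact permutation p = 0.243; rho -0.11, p = 0.840) and 0.74 for *Alas2* (exact permutation p = 0.0560; rho 0.50, p = 0.267). Leaving out 1 of these mice at a time, r ran from -0.41 to 0.80 for *Hba-a1*, from -0.29 to 0.66 for *Hba-a2* and from 0.39 to 0.87 for *Alas2*. No correlation was computed over the 5 early b6/b6 mice. A trend with study number inside the late b6/b6 mice was thus not shown.

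The cast/cast and b6/b6 slopes were compared directly. The difference, cast/cast minus b6/b6, was -0.53 for *Hba-a1* (P = 0.276), -0.39 for *Hba-a2* (P = 0.412) and -0.81 for *Alas2* (P = 0.0701) with all mice. None of the 3 passed an adjusted P of 0.05, where 1 gene did (0.00714%), or an unadjusted P of 0.01, where 2.89% did. Without mice 27 and 42 the differences were -1.24 for *Hba-a1* (P = 0.00051), -1.15 for *Hba-a2* (P = 0.000416) and -1.34 for *Alas2* (P = 0.00118), and all 3 were among the 1.48% of genes at an unadjusted P of at most 0.01. Their adjusted P was 0.514, and 0 of 13948 genes passed by adjusted P in limma, with 1271 under 0.05 unadjusted. Without mice 15 and 72 as well they were -1.14 (P = 0.00262), -1.07 (P = 0.00286) and -0.96 (P = 0.0253), so *Alas2* was not at an unadjusted P up to 0.01 there. Because the mice left out were the early b6/b6 mice with the highest levels, these values are a description only, and a difference between the slopes was not shown.

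No slope of a hemoglobin gene with either intake measure of the labels passed. Per 10 kcal of total intake over the 10 d test, with genotype in the model, the log2 slopes were 0.06 for *Hba-a1* (adjusted P = 0.955), 0.11 for *Hba-a2* (adjusted P = 0.902) and -0.22 for *Alas2* (adjusted P = 0.770). Per 10 kcal from the carbohydrate/protein diet they were -0.37 (adjusted P = 0.960), -0.32 (adjusted P = 0.960) and 0.19 (adjusted P = 0.965). limma called 0 of 13998 genes (0%) for either, with 1394 and 521 under an unadjusted P of 0.05. Without mice 27 and 42 the slopes were 0.26 (P = 0.280), 0.35 (P = 0.112) and -0.13 (P = 0.645) for total intake and -0.17 (P = 0.565), -0.06 (P = 0.829) and 0.35 (P = 0.310) for the carbohydrate/protein diet, again with 0 genes called. Without mice 15 and 72 as well, the total intake slope of *Hba-a2* was 0.52 (P = 0.0246, adjusted P = 0.929).

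Hemoglobin levels tended to be higher in libraries less like the others. Pearson's r between log2 level and the median correlation with the other libraries was -0.70 for *Hba-a1* (permutation p = 0.0103; rho -0.56, p = 0.0634), -0.63 for *Hba-a2* (p = 0.0287; rho -0.64, p = 0.0301) and -0.76 for *Alas2* (p = 0.00222; rho -0.81, p = 0.00214) in the 12 cast/cast mice. In the 12 b6/b6 mice it was -0.73 (permutation p = 0.00561; rho -0.73, p = 0.00881), -0.81 (p = 0.0036; rho -0.71, p = 0.0113) and -0.59 (p = 0.0359; rho -0.77, p = 0.00465). Without the farthest pair of libraries, r was -0.45, -0.49 and -0.64 in cast/cast (without 72 and 15) and -0.61, -0.60 and -0.59 in b6/b6 mice (without 27 and 42; permutation p = 0.0595, 0.0697 and 0.0703). Mice 288 and 332 had high sums of 653 and 635 with libraries at 0.951 and 0.947. The part of this relation in the results above was not tested. With total tag hits and all mice, r lay between -0.34 and 0.07 over the 3 genes in both genotypes. The lowest permutation p was 0.281 for r and 0.226 for rho. In b6/b6 mice without 27 and 42, r with total tag hits was 0.25, 0.20 and 0.19 (permutation p = 0.487, 0.589 and 0.600).

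**Figure D2:**
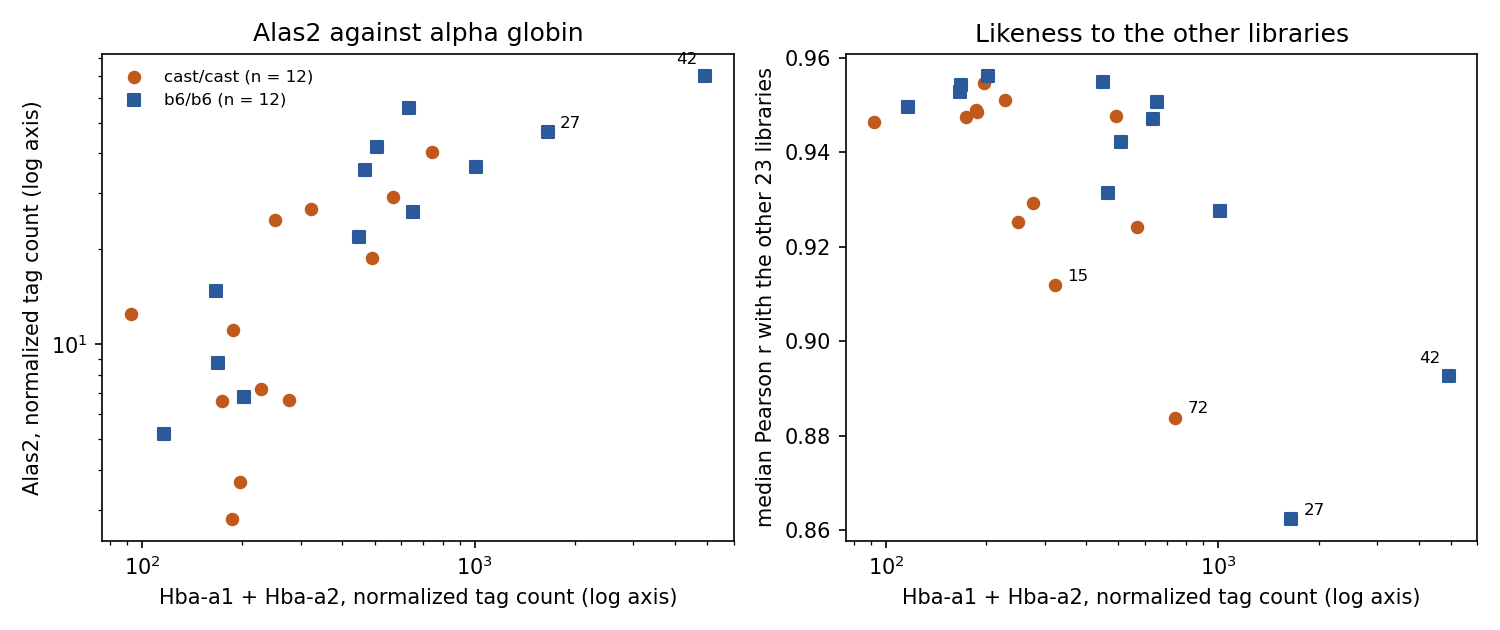
*Alas2* (normalized tag count) and the median correlation of each library with the other libraries, both against the *Hba-a1* and *Hba-a2* sum (normalized tag count, log axis), 1 point per mouse, 12 cast/cast and 12 b6/b6. Mice with a high alpha-globin sum had more *Alas2*, and mice 27 and 42, with sums of 1657 and 4929, had median correlations of 0.862 and 0.893.

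Genes whose level followed the alpha-globin sum most closely over the 24 mice, after subtracting each genotype's mean, were led by *Desi1* (r = 0.85), *Hrh1* (0.84), *N6amt2* (0.84), *Eef1d* (0.84) and *Rab39b* (0.82), then *Clpp*, *Ift46*, *Lmo4*, *Ankrd45* and *Gfra4*, the last at 0.82. The most opposite were *Scube1* (r = -0.87), *Ncoa6* (-0.85), *Ube2g1* (-0.84), *Gm14164* (-0.84) and *Tmem188* (-0.82). *Desi1* was at 653 normalized tag counts in mouse 27 and 565 in mouse 42, above the range of 71.8 to 208 in the other 22 mice, and *Eef1d* at 5748 and 5598, above 251 to 1281. In each of the 10 closest genes mice 27 and 42 lay above the other 22 mice. *Alas2* had an r of 0.76 and ranked 55th against 13995 other genes. In the 22 mice other than 27 and 42 its r was again 0.76, at rank 12, and *Rps4x* (0.89) and *Desi1* (0.81) led. These are descriptions over 24 and 22 mice, and the median size of r over all genes was 0.25 and 0.36.

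Few other markers of red cells were in the table. Of a list of 15 erythroid genes only *Epor*, the erythropoietin receptor, at a mean of 11.5, and *Rhd*, a red cell membrane protein, at 10.6, were in the table. *Slc4a1*, *Ahsp* and the rest of the list were not in it and were not analysed here. The summed level of the pair was 45.7 in mouse 27 and 35.5 in mouse 42, against 7.37 to 34.4 in the other 22 mice, and r with the alpha-globin sum was 0.005 for *Epor* and -0.06 for *Rhd* over 24 mice and -0.45 and -0.25 without mice 27 and 42.

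Of 17 reticulocyte genes that brain cells also express, 16 were in the table. *Prdx2*, an antioxidant enzyme abundant in red cells, was highest at a mean of 6574, followed by *Bnip3l* at 2611, *Dmtn* (listed as *Epb4.9*) at 2570 and *Slc25a39* at 2250. Their summed level was 15279 in mouse 42 and 15631 in mouse 27, below the other 22 mice, which ran from 16921 to 26923. Their r with the alpha-globin sum ran from -0.47 (*Prdx2*) to 0.62 (*Add2*), with a median of -0.07. Single genes were high in mice 27 and 42, such as *Mkrn1* at 877 and 620.5 (median 233) and *Ank1* at 313 and 192 (median 74.7). Others were low in these mice, such as *Prdx2* at 3854 and 4193 (median 6408) and *Bnip3l* at 860 and 1065 (median 2210).

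The other enzymes of heme synthesis showed a mixed picture. Of 8, 7 were in the table, and *Alas1*, the form of the enzyme used in all tissues, was the most abundant at a mean of 567, followed by *Fech* at 358, *Cpox* at 304 and *Alad* at 139. *Fech*, which inserts iron into heme, had the highest r with the alpha-globin sum at 0.80 and *Uros* the lowest at -0.53. *Fech* stood at 1452 in mouse 27 and 943 in mouse 42, against a median of 253. Without those mice its r was 0.68, and the lowest was that of *Alas1* at -0.59. The median r of the list was -0.16 over 24 and -0.38 over 22 mice. The summed level of the list was 2829 in mouse 27 and 2257 in mouse 42, against 809 to 1905 in the other mice.

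*Urod*, the uroporphyrinogen decarboxylase, was the only gene of all lists that met the genotype threshold and was named for that after its values were seen. This is 1 of 116 list genes, beside 1.49% of all genes (208 of 13998). Cast/cast mice averaged 17.8 ± 8.24 and b6/b6 mice 37.6 ± 21.7 (SD, n = 12 each), a ratio of 0.474 and a log2 difference of -0.96 (P = 0.00294, adjusted P = 0.289). Without mice 27 and 42 the difference was -0.73 (P = 0.0141) and did not meet it.

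Of 6 other globins 5 were in the table. *Adgb* (listed as *9130014G24Rik*) had the highest mean at 241, followed by *Cygb*, cytoglobin, at 84.9, *Ngb*, the neuronal globin, at 47.4 and *Hbq1a* at 21.1. *Ngb* was at 309 in mouse 27 and 181 in mouse 42 against a median of 27.3, and its r with the alpha-globin sum was 0.66. *Adgb* (132 and 147, median 245) and *Mb* (5.44 and 7.48, median 19.7) were below their medians in both mice. *Cygb* (95.7 and 90.6, median 86.0) and *Hbq1a* (23.9 and 17.8, median 20.4) lay near theirs. The lowest r of the list was -0.37 (*Adgb*), and its median r was 0.16 over 24 mice and 0.31 without mice 27 and 42. *Hbq1b* was not analysed here. The sums of the list ran from 298 to 502 in the other 22 mice and were 566 and 444 in mice 27 and 42.

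Genes for the clearance of heme and hemoglobin were present for 10 of 12, led by the ferritin heavy chain *Fth1* at a mean of 14022, *Lrp1* at 4540, *Hmox2* at 2931 and *Blvra* at 850.3. Their r with the alpha-globin sum ran from -0.59 (*Blvra*) to 0.35 (*Blvrb*), with a median of 0.04, and the summed level from 17436 to 33242. Of 12 regulators of globin genes 6 were in the table, led by *Lmo2* at 663, *Bcl11a* at 393, *Zbtb7a* at 309.9 and *Ldb1* at 94.5, while the defining erythroid factors *Klf1*, *Gata1* and *Tal1* were not analysed here. The sum of the 6 ran from 1294 to 1906. Their r with the alpha-globin sum ran from -0.65 (*Lmo2*, 203 in mouse 27 and 349 in mouse 42) to 0.44 (*Zbtb7a*, 684 and 594), with a median of 0.10.

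Few markers of other blood cells were in the table, which holds no gene with a mean below 6.03, so a missing symbol does not show that a cell type was scarce. None of 14 neutrophil and monocyte genes, such as *S100a8*, *S100a9* and *Lyz2*, was in the table, so these were not analysed here. Of 11 lymphocyte genes *Cd79a* (mean 78.2) and *Jchain* (listed as *Igj*, 7.98) were in the table. Their sum was highest in cast/cast mouse 72 at 413 and lowest in mouse 27 at 23.9. The sum of mouse 72 was nearly all *Cd79a*, at 408, and *Jchain* was below its mean in that mouse. Of 10 platelet genes 4 were in the table, *Itga2b* at 44.7, *Gp1bb* at 32.6, *Pf4* at 15.3 and *Gp9* at 11.8. The platelet sums were 69.6 in mouse 27 and 60.7 in mouse 42, against 67.7 to 171 in the other mice. Mouse 331, next in alpha-globin after these, had 103 for the lymphocyte and 113 for the platelet sum, and mouse 72 had a platelet sum of 133. Over 24 mice the median r with the alpha-globin sum was -0.04 for the lymphocyte and -0.20 for the platelet list. Without mice 27 and 42 it was 0.07, from -0.36 (*Jchain*) to 0.51 (*Cd79a*), and -0.06, from -0.38 (*Gp9*) to 0.53 (*Gp1bb*).

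Vessel markers were measured for nearly every gene listed. Of 17 endothelial genes 16 were in the table, led by *Itm2a* at a mean of 974, *Ly6c1* at 754, *Ly6a* at 428 and *Slco1c1* at 242. Their sum was highest in cast/cast mouse 72 at 4481, followed by mice 42 at 4032, 342 at 3648, 112 at 3595 and 27 at 3549, with a median of 3028 over the 24 mice. The median r of the list with the alpha-globin sum was 0.10, from -0.42 (*Ly6c1*) to 0.36 (*Cldn5*). Single genes were high in these mice, such as *Slco1a4* at 397 in mouse 27 and 346 in mouse 42 (median 72.8). *Flt1* was at 165 and 150 (median 32.0) and *Cldn5* at 245 and 204 (median 75.1). Others were low, such as *Ly6c1* at 263 and 328 (median 730) and *Cdh5* at 34.8 and 56.1 (median 65.0). All 10 mural genes were present, led by *Vtn* at 901, *Myh11* at 391, *Cspg4* at 127 and *Rgs5* at 85.9, with sums from 927 to 2749. The median r of the mural list was -0.09, from -0.33 (*Higd1b*) to 0.63 (*Pdgfrb*). In mice 27 and 42 *Pdgfrb* was at 137 and 86.0 (median 40.9) and *Higd1b* at 34.8 and 46.7 (median 73.6).

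Tissue neighbouring the hypothalamus was present to a varying degree. All 9 meningeal genes were in the table, led by *Mgp* at 516, *Igf2* at 509.7, *Col1a1* at 149 and *Dcn* at 148, and the sum was highest in cast/cast mice 72 at 6001 and 93 at 4032 and in b6/b6 mouse 251 at 3462, against a median of 977. The median r of the list with the alpha-globin sum was 0.27. Of 10 choroid plexus genes 6 were in the table, led by *Prlr* at 795, *Calml4* at 103, *Kl* at 72.0 and *Clic6* at 52.8, with sums from 625 to 1605 and a median r of 0.17. Of 8 pituitary genes 4 were, *Gh* at 42.5, *Cga* at 35.7, *Pitx1* at 22.0 and *Fshb* at 14.1, and the sum was highest in mouse 27 at 472, followed by mice 93 at 349, 197 at 271, 332 at 246 and 255 at 226, with 186 in mouse 42 and a median of 46.5. The sum of mouse 27 was nearly all *Gh*, at 467. *Cga* (3.26, median 6.31), *Fshb* (1.09, median 1.88) and *Pitx1* (1.09, median 3.45) were below their medians in that mouse. In mouse 42 each of the 4 was above its median. Over the 22 mice other than 27 and 42, the median r was -0.21 for the reticulocyte, 0.16 for the clearance, -0.08 for the regulator, -0.21 for the endothelial, -0.20 for the mural, 0.24 for the meningeal and 0.21 for the choroid plexus list. The part of these cells in the hemoglobin results was not tested.

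By adjusted P no gene of any list passed for the genotype difference or for the study number slope over 24 mice. Among all genes, 0.572% (80 of 13998) passed for the genotype difference and 0% for the slope. In b6/b6 mice the slopes of *Mb*, *Bnip3l*, *Epor*, *Fbxo7*, *Slco1a4*, *Slco1c1* and *Rgs5* passed, *Mb* (0.56, adjusted P = 0.0311) and *Bnip3l* (0.36, adjusted P = 0.0408) upward and the others downward, from -0.37 for *Rgs5* to -0.69 for *Slco1a4*. These are 7 of 116 list genes (6.03%), beside 14.1% of all genes. None passed without mice 27 and 42. The median slope of a list over 24 mice ran from -0.36 for the erythroid pair to 0.24 for the pituitary list, beside -0.01 over all genes. That of the endothelial list was -0.11, and -0.02 without mice 27 and 42.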

How the data were processed

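Hypothalamus SAGE-Seq libraries of 24 mice, 1 per mouse, were analysed from the deposited table. The signal values deposited by the authors are tag hits per gene (aligned to RefSeq mRNA and GRCm38/mm10), each divided by its library's DESeq size factor. Replicates are separate mice. The 19529 rows hold 13998 genes, and repeated rows of a gene had the same values (1 distinct value), so each gene was used once. Dividing each library by its smallest step recovered whole tag hits (100% within 0.1 tag hits), in total 7754202 to 13082873 per mouse. None of 276 library pairs looked duplicated (lowest chi-square per degree of freedom 14.7). The comparison columns that the authors deposited (base means, fold change, log2 fold change, p and adjusted p) were not used.

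Genes with a mean of at least 5, which all 13998 passed (lowest mean 6.03), were fitted by limma 3.58.1 (lmFit, trended eBayes, two-sided) on log2(normalized count + 1), with Benjamini-Hochberg adjustment over all genes. Sets without some mice tested the genes that still passed the minimum. Genotype calls needed an unadjusted P up to 0.01 together with group means differing by at least 1.5 times. Slope calls required an adjusted P of at most 0.05, with an unadjusted P of at most 0.01 as a second rule. Slopes were per 100 study numbers or per 10 kcal, with genotype as a covariate or 1 slope per genotype. Correlations used log2(normalized count + 1) and two-sided permutation tests with 100000 resamples, or exact enumeration for 7 mice. Alternatives comprised a pseudocount of 0.5 or 5, no minimum or one of 20, equal totals with and without the hemoglobin genes, edgeR 4.0.16 (quasi-likelihood, TMM) and DESeq2 1.42.0 on tag hits, other covariates, rank of study number, colony number, and sets without some mice. The fits were tested on simulated counts without outlying libraries, so that test does not cover results that rest on single mice. Python 3.11.15 (numpy 2.4.6, pandas 2.3.3, scipy 1.17.1, matplotlib 3.10.9) and R 4.3.3 were used.

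Genes named were all hemoglobin genes, up to 4 of each list by mean level, and the 10 genes most and 5 least like the alpha-globin sum. List genes singled out for an r, a call or a level in mice 27 and 42 were named after their values were seen. The members and lists were chosen with earlier results of these data known. Tags came from GENCODE vM21 transcripts and promoters from RefSeq.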

Additional observations from a re-analysis of the deposited data

Results flagged for a closer look

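The difference between the genotypes in slope with study number had a low unadjusted P for all 3 hemoglobin genes when b6/b6 mice 27 and 42 were left out, in the test of the difference itself, and did not pass by adjusted P. These mice, left out after seeing the data, are early b6/b6 mice with the highest alpha-globin sums, so leaving them out by itself raises the b6/b6 slope, and the values are a description only. Per 100 study numbers the difference in log2 slope, cast/cast minus b6/b6, was -1.24 for *Hba-a1* (P = 0.00051), -1.15 for *Hba-a2* (P = 0.000416) and -1.34 for *Alas2* (P = 0.00118), with an adjusted P of 0.514 over all 13948 genes tested with limma. Without mice 15 and 72 as well, they were -1.14 (P = 0.00262), -1.07 (P = 0.00286) and -0.96 (P = 0.0253), so *Alas2* lost the unadjusted P of at most 0.01. With all 24 mice the same differences were -0.53, -0.39 and -0.81 and did not pass. Over the alternatives that left out no single mouse, the adjusted P ran from 0.414 to 0.646 for *Hba-a1*, 0.414 to 0.756 for *Hba-a2* and 0.390 to 0.734 for *Alas2*. The alpha-globin genes share their tag, so these are not independent results.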

How the results depend on the processing

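The 21 test results of *Hba-a1*, *Hba-a2* and *Alas2* were compared with alternatives 138 times, of which 119 kept direction and side of the threshold, 14 changed direction and 5 newly passed. None of the 21 results passed in the main fits, so none could cease to pass. Sets without mice 27 and 42 or without mice 15, 27, 42 and 72, and edgeR without 27 and 42, were chosen after seeing the data. The genotype difference stayed negative for all 3 genes. *Hba-a1* and *Hba-a2* passed with edgeR (-1.52, -1.62) and DESeq2 (-1.51, -1.62). Genotype calls numbered 391 with edgeR, 395 with DESeq2, 137 without mice 27 and 42, and 108 without them and with study number as a covariate.

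The study number slopes of *Hba-a1* and *Hba-a2* turned to 0.26 and 0.24 without mice 27 and 42, 0.41 and 0.38 without the 4 mice, and 0.22 and 0.23 with edgeR without 27 and 42. That of *Alas2* turned to -0.0772 with DESeq2, -0.0662 with edgeR and -0.0103 without mice 342 and 364, the farthest in study number. It passed at 0.57 without the 4 mice, which are early and high in *Alas2*, so leaving them out by itself raises this slope. Genes called were 385 with edgeR, 959 with DESeq2, 1 without the genotype covariate and 2135 without the 4 mice. The cast/cast slope had 29 calls without the 4 mice, and that of *Alas2* was -0.137 there. In the difference of slopes, *Alas2* had P = 0.0253 without the 4 mice, against 0.00118 without 27 and 42. The b6/b6 slope of *Hba-a1* turned to -0.0588 with equal totals and -0.00278 with a pseudocount of 5, and that of *Hba-a2* to 0.66 without 27 and 42 and 0.66 without the 4 mice, with 0 calls in both sets. The difference of slopes had 0 calls with equal totals and in both sets. The total intake slope of *Alas2* turned to 0.0442 without the 4 mice. Over b6/b6 mice without 27 and 42, rho of *Hba-a1* turned to 0.58 and r of *Hba-a2* to 0.86. Over the 7 late b6/b6 mice alone, also chosen after seeing the data, r of *Hba-a2* turned to 0.52 and its rho to -0.11. The coefficient of variation of *Hba-a1* moved to 79.3% without mouse 42 and 70.2% without 27 and 42, and that of *Hba-a2* to 93.6% and 60.3%. The fold between highest and lowest mouse moved to 13.0 and 9.98 for *Hba-a1* and 26.7 and 12.6 for *Hba-a2*. The cause was not tested in any of these cases.

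Leaving out each of the 24 mice in turn, the genotype difference ran from -1.10 to -0.62 for *Hba-a1*, -1.11 to -0.61 for *Hba-a2* and -1.10 to -0.76 for *Alas2*, with 145 to 255 genes called. The study number slopes ran from -0.27 to 0.0680, -0.34 to 0.0109 and -0.0361 to 0.18, with 0 to 1174 calls. In cast/cast mice they ran from -0.65 to -0.37, -0.67 to -0.30 and -0.76 to -0.32, with 0 calls, and in b6/b6 mice from -0.16 to 0.33, -0.27 to 0.23 and 0.17 to 0.50, with 0 to 2717 calls. Their difference ran from -0.85 to -0.36, -0.72 to -0.21 and -1.05 to -0.61, with 0 to 5 calls.

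Counting depth limits *Alas2* most, which rested on 3 to 75 tag hits per mouse. The deposited table holds no gene with a mean below 6.03, and symbols not in it were not analysed here. No paired analysis was possible, because replicate numbers only follow the order of the deposited samples. Mice 27 and 42 had library correlations of 0.862 and 0.893, but mouse 72 was lower than mouse 42 at 0.884, so the library correlation alone does not give this pair. They also had the highest alpha-globin sums and have low study numbers, so the sets without them select on the level tested and hold 3 early b6/b6 mice.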
